A study of Homo sapiens with 2 samples.

Results

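The NAMPT upstream peaks are a pair of sites where HMGA1 was listed as enriched in RAS-infected fibroblasts. They are the 2 peaks of 2352 on the authors' deposited list that start between 105800000 and 106050000 on chromosome 7 (hg19), a window of 250 kb around the NAMPT gene. The window was chosen by gene position and selected on the listed folds known to lie in it, so the presence of the pair and its tags and folds are given as a description. The list came from chromatin immunoprecipitation and sequencing (ChIP-seq) of HMGA1 in IMR90, a line of human diploid fibroblasts from lung. Cells of both groups were between population doublings 25 and 35 and were grown at 2% oxygen. They were infected with retrovirus on days 1 and 2, put under puromycin at 1 µg/ml from day 3 and harvested on day 12. One group received RAS, which drives these fibroblasts into senescence, and the other the empty vector. The data used here hold no measure of growth or senescence in either group. There was 1 library per group, so replicate error is unknown and RAS was not tested against vector. The labels do not say which RAS gene or mutant was used. No expression was measured, so the fibroblast label was not checked against marker genes, and NAMPT RNA was not measured.

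NAMPT is the enzyme that limits the rate at which cells recycle nicotinamide into NAD+, the main salvage route to this cofactor in mammalian cells. NAD+ carries electrons in central metabolism and is consumed by sirtuins, PARP enzymes and CD38. HMGA1 is a small, abundant chromatin protein whose AT hooks hold the minor groove of AT-rich DNA, and it is known to build up on chromatin in senescent fibroblasts. By its title, the study concerns how NAD+ metabolism governs the factors that senescent cells secrete. The question put to the list here is where HMGA1 tags lay around NAMPT, and how the pair compares with the other 123 listed peaks of chromosome 7. The study's paper was not used here, so its own account of HMGA1 at NAMPT was not compared.

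NAMPT lies on the minus strand of chromosome 7, from about 105.889 Mb to 105.926 Mb, positions given to about 1 kb, so upstream of the gene means higher coordinates. Both peaks lay upstream, 0 lay within the gene and 0 beyond its end. The nearer, called the proximal peak, was at chr7:105927232-105927598. Its centre was about 1.4 kb upstream of the gene start (0.9 to 1.9 kb, allowing 0.5 kb either way for the start). The farther, called the distal peak, was at chr7:105945664-105946030, with its centre about 19.8 kb upstream (19.3 to 20.3 kb). Each spanned 366 bp from start to end, the width given to every peak of chromosome 7. In the RefSeq gene order of GRCh38.p14, used only for which genes neighbour each other, the next gene on the start side of NAMPT is the long non-coding NAMPT-AS1 and the next protein-coding gene is CCDC71L. No annotation of hg19 was used here, so the peaks were placed in no exon, intron or transcript.

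The near edge of the proximal peak was about 1.2 kb from the gene start, and 0.7 kb at the least when the start is moved by 0.5 kb. It therefore lay outside the 250 bases just before the start. Listed peaks of chromosome 7 stood a median of 885 kb apart, so most stretches of that length held none. No listed peak fell in the 250 bases before the NAMPT start either. Those bases are shown as a promoter window of the gene, since HMGA1 is known for binding runs of A and T. Whether their letters relate to the absence of a listed peak was not tested. They are taken from RefSeq on GRCh38.p14, written 5′ to 3′ on the strand of NAMPT, with the longest runs of A or T in capitals.
NAMPT promoter, 250 bases: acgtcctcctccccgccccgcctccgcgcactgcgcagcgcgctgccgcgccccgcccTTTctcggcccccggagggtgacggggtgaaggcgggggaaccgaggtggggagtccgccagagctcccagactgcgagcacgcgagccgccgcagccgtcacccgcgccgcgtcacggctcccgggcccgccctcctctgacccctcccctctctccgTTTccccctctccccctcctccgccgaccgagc
A and T made up 22.8% of these bases, against a median of 42% over the same 250 bases of 35116 RefSeq promoters, and 6.83% of promoters had as low a share. The longest run of A or T was 3 bases, which occurred at 2 places. A longer run was present in 88.6% of promoters, and a run of at least 6 in 58.7%. These letters describe the promoter window. The hg19 sequence of the peaks themselves was not used here, so whether either peak is AT-rich was not tested.

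**Figure D1:**
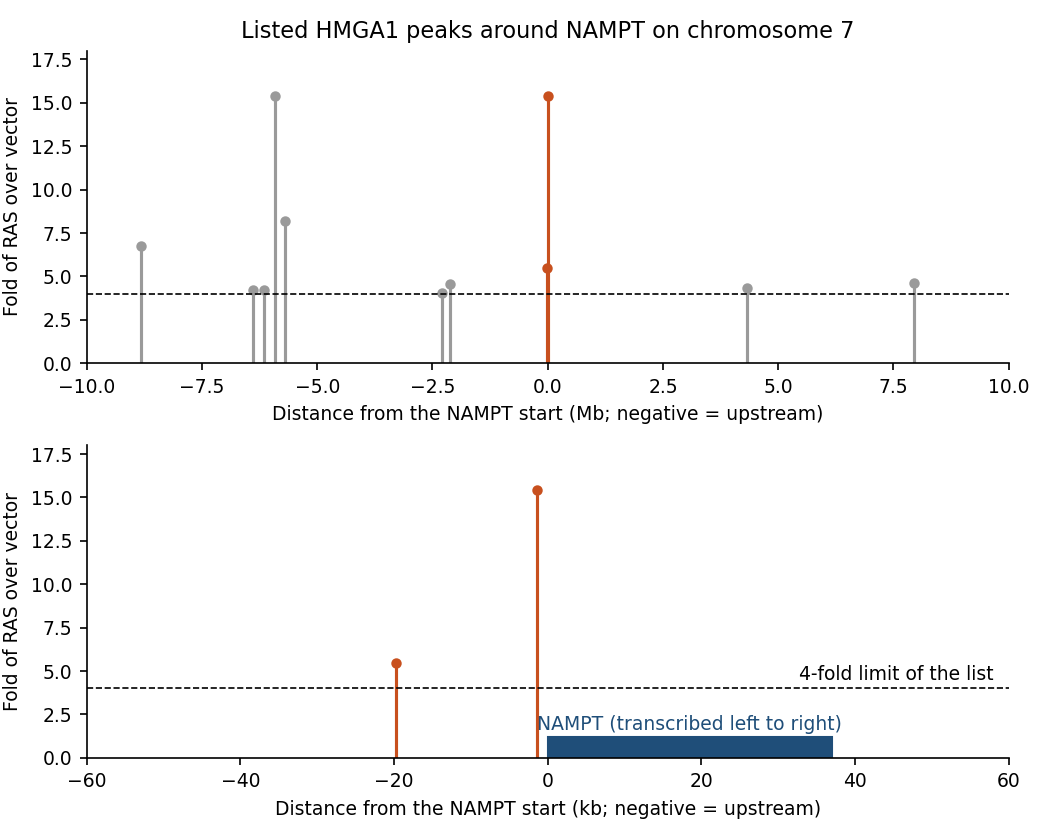
Fold of RAS over vector (vertical axis, the authors' values) of listed peaks against distance from the NAMPT start, within 10 Mb (top, in Mb) and within 60 kb (bottom, in kb), drawn with the upstream side to the left. Orange marks the NAMPT upstream peaks, grey the other listed peaks of chromosome 7, the blue bar the gene, and the dashed line the 4-fold limit of the list; both orange peaks stand upstream of the gene and no other listed peak is within 2 Mb.

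At the proximal peak the RAS library had 16 HMGA1 tags and the vector library 1 tag. Tags are aligned reads, each standing for 1 sequenced fragment. The exact Poisson 95% interval was 9.15 to 26.0 for the RAS tags and 0.0253 to 5.57 for the vector tag. RAS was the higher library, as it is at every listed peak by the 4-fold limit, so the gap between these intervals is no separate support for a difference. Brought to the vector library's depth by a factor of 0.964, the RAS tags came to 15.4, and the fold of RAS over vector was 15.42. The exact 95% interval of this ratio (Clopper-Pearson, conditional on the total tags) was 2.40 to 647. Its upper bound is loose because it rests on 1 vector tag: with 2 the fold would be 7.71.

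At the distal peak the RAS library had 17 tags and the vector library 3. Their Poisson intervals were 9.90 to 27.2 and 0.619 to 8.77, and RAS was again the higher library by the list's own limit. The scaled RAS tags came to 16.4 and the fold to 5.46, with an exact 95% interval of 1.58 to 29.1. With 4 vector tags the fold would be 4.10. RAS tags thus differed by 1 between the peaks and vector tags by 2, and the intervals of the folds overlapped over most of the distal peak's range. These counts do not separate the fold of the proximal peak from that of the distal peak. All intervals cover counting error in these libraries only, do not allow for the selection of listed peaks by their fold, and may be too narrow, since reads amplified over 12 cycles without molecular identifiers are not independent molecules.

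**Figure D2:**
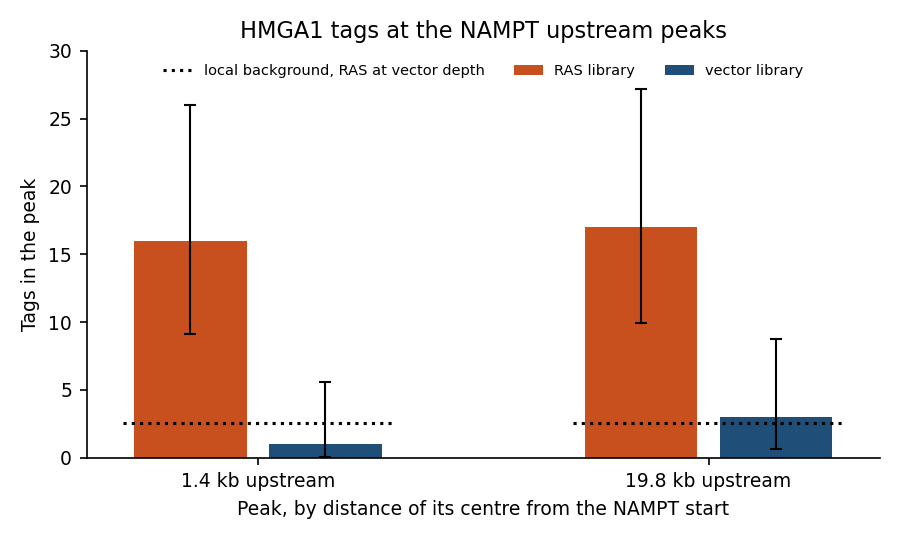
HMGA1 tags (vertical axis, whole tags) in the RAS library (orange) and the vector library (blue) at the peaks 1.4 kb and 19.8 kb upstream of NAMPT, with exact Poisson 95% intervals for counting error as bars. The dotted line is the local background of the RAS library at the vector depth, 2.60 tags at each peak; RAS stands at 16 and 17 tags and vector at 1 and 3.

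Every listed peak had passed a fold over vector of 4, so 100% of the 2352 peaks were past that limit. About the fold over vector, the pair's place on the list says no more than that. At a fold of at least 8, 12.2% of all listed peaks and 12.0% of those on chromosome 7 were past the limit, and 1 of the pair was, the proximal peak. The limit also bounds the vector tags. With 16 and 17 RAS tags, the proximal peak could have had at most 3 vector tags and the distal peak at most 4. The proximal peak was 2 tags below its bound and the distal peak 1 tag. Among the other 123 peaks of chromosome 7, 70 had as many vector tags as the limit allows, 31 had 1 fewer and 22 had 2 or more fewer. In the authors' deposited table the p-value over vector was 3.00e-13 at the proximal peak and 1.24e-07 at the distal peak. Those p-values compare these libraries, not the conditions.

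In RAS tags the pair was in the lower part of the chromosome's peaks. For the other 123 peaks the RAS tags ranged from 14 to 29, with quartiles of 17 and 21 around a median of 18, and 119 of them had 16 or more. The caller's score, a value set by the tags in a peak, was 16 at the proximal peak, the lowest on the whole list, and 17 at the distal peak. The lowest score was shared by 14 of the other 123 peaks. The running numbers in the peak identifiers were 11106 and 8700, and 3 and 20 of the other peaks had numbers as high, up to 12015. Peaks with more RAS tags than the pair made up most of the chromosome's list.

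In vector tags the proximal peak was at the low end of chromosome 7, though the 4-fold limit allows few vector tags wherever RAS tags are few. Vector tags at the other peaks ranged from 1 to 6, with quartiles of 3 and 4 and a median of 4. Of the 123, 5 (4.07%) also had 1 vector tag, and 0 had none. Over all other listed peaks of the genome, 87 of 2350 (3.70%) had 1 vector tag and 14 (0.596%) had 0. Among peaks with the same 16 RAS tags the share with 1 vector tag was higher, 3 of 14 (21.4%) on chromosome 7 and 24 of 253 (9.49%) over the genome. The distal peak, with 3 vector tags, was at the lower quartile, alongside 33 of the 123. The Poisson intervals of 1 and 3 vector tags overlap, so these counts do not separate the peaks in vector cells.

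In fold, 5 of the 123 other peaks (4.07%) were at or above the proximal peak, and 44 (35.8%) at or above the distal peak. The other folds ranged from 4.02 to 20.24 around a median of 4.82 (quartiles 4.34 and 5.78). The 5 were the peaks with 1 vector tag. By the lower 95% limit of the ratio, 6 of the 123 were at or above the 2.40 of the proximal peak. By the same measure 65 (52.8%) were at or above the 1.58 of the distal peak, which is also the median of the other peaks.

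**Figure D3:**
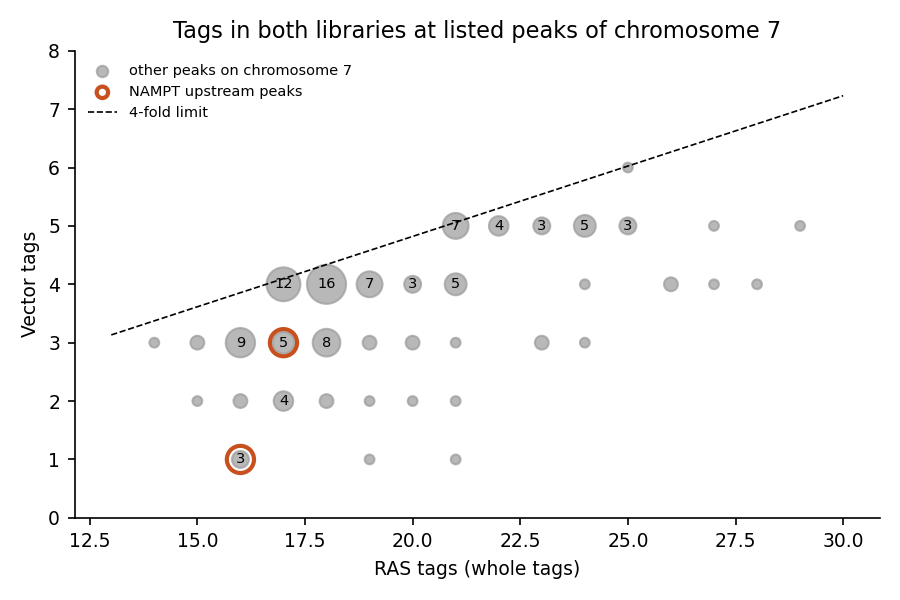
RAS tags (horizontal axis) against vector tags (vertical axis) at the listed peaks of chromosome 7. Grey discs are the other 123 peaks, with an area in proportion to their number, printed where it is 3 or more; orange rings mark the NAMPT upstream peaks at 16 and 1 and at 17 and 3 tags, below the dashed 4-fold limit.

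Peaks with the same tags in both libraries were present elsewhere on the chromosome. The tags of the proximal peak, 16 and 1, recurred at 3 other peaks, which started at 1698197, 111848290 and 135379597. Their focus ratios were 0.842, 0.895 and 0.850, each above the 0.680 of the proximal peak, and their folds over the surroundings were 6.19, 4.21 and 6.10. The tags of the distal peak, 17 and 3, recurred at 5 other peaks. The first 3 of these by position started at 15979108, 29465180 and 67404774. Over all 5 the focus ratio ran from 0.700 to 0.889, and 1 was at or above the 0.857 of the distal peak. Their folds over the surroundings ran from 4.57 to 5.20, and 0 of 5 reached its 6.30. Over the genome, 9 of 122 such peaks reached its focus ratio and 5 its fold over the surroundings. Over all other listed peaks the tags of the proximal peak recurred at 24. A pair of tag counts of this kind is therefore not particular to the NAMPT region.

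Local signal was close in value at both peaks. The authors' fold over the local surroundings in the RAS library was 5.93 at the proximal peak (their p-value was 3.00e-08) and 6.30 at the distal peak (4.71e-09). The size of those surroundings is not given in the sources used here. Scaled RAS tags divided by this fold give the local background, the tags that the surroundings would place in a peak width, and it was 2.60 at each peak. The vector tags were 0.385 of this background at the proximal peak and 1.15 times it at the distal peak. With so few vector tags, and with their number bounded by the list's limit, these ratios do not show whether vector cells were at, above or below background.

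Both folds over the surroundings were in the upper part of the chromosome's range. Over the other 123 peaks this fold ran from 4.02 to 9.04, with a median of 4.74 and quartiles of 4.23 and 5.29. Of these, 16 (13.0%) were at or above the proximal peak and 10 (8.13%) at or above the distal peak. Their local background ran from 2.23 to 5.75 tags, with a median of 3.85 and quartiles of 3.41 and 4.30, and 7 of the 123 (5.69%) were at or below the pair's. The list's 4-fold limit on this measure holds the background down where RAS tags are few: it could be at most 3.86 at the proximal peak and 4.10 at the distal peak. Among the 35 other peaks of chromosome 7 with 16 or 17 RAS tags, which faced the same limit, the median was 3.37 (range 2.23 to 4.07), and 4 were at or below 2.60. Over all other listed peaks with 16 or 17 RAS tags, 49 of 636 were. A fold over vector of at least 5.46 together with a fold over the surroundings of at least 5.93, the lower values of the pair, was met by 6 of the 123 other peaks and by 98 (4.17%) of 2350 over the genome.

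The focus ratio is the share of tags that lie on the side of the peak centre where a point source of binding would put them, and a higher value means a sharper peak. In the authors' deposited table it was 0.680 at the proximal peak and 0.857 at the distal peak. On chromosome 7 the other focus ratios ran from 0.526 to 0.909, with a median of 0.727 and quartiles of 0.681 and 0.769. Of the 123, 92 (74.8%) were at or above the proximal peak and 10 (8.13%) at or above the distal peak. How many tags each ratio was taken over is not given in the sources used here, and no error is given for it. The values therefore do not show that the peaks differ in sharpness. The clonal fold, a measure of repeated tags, was 0.98 at both peaks, and it ranged from 0.95 to 0.98 on the list. This highest value was common: 76 of the other 123 peaks of chromosome 7 (61.8%) shared it, and 1353 of 2350 (57.6%) over the genome.

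**Figure D4:**
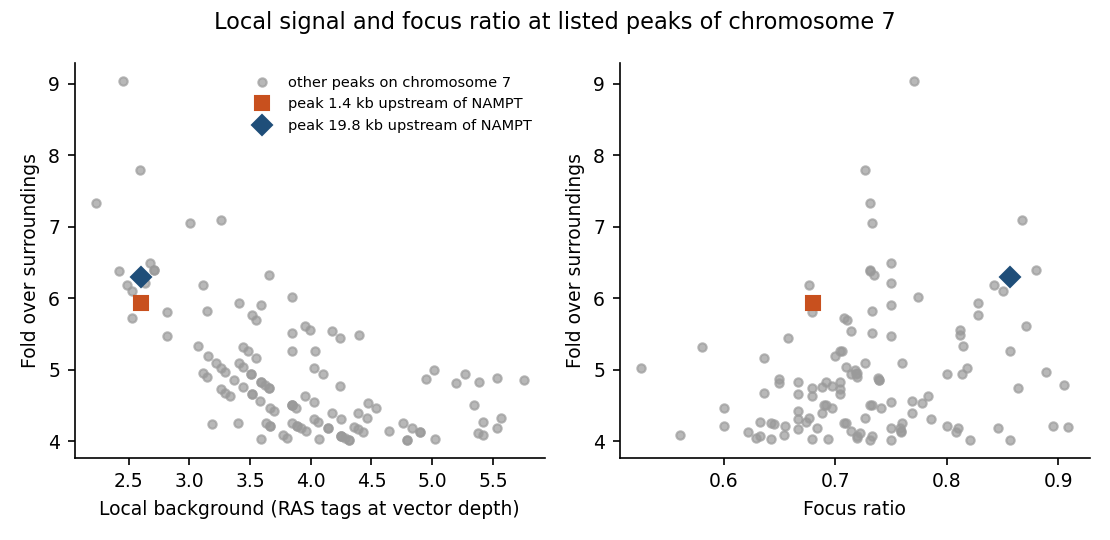
Fold over the local surroundings (vertical axis, the authors' values) against local background in RAS tags at the vector depth (left) and against the focus ratio (right) at the listed peaks of chromosome 7. Grey points are the other 123 peaks; the square is the peak 1.4 kb and the diamond the peak 19.8 kb upstream of NAMPT, which share a local background of 2.60 tags and have focus ratios of 0.680 and 0.857. The vertical axis starts near the 4-fold limit, and the local background is computed from the same fold.

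The pair stood close together in a stretch otherwise free of listed peaks. Their starts were 18432 bp apart, and of the 124 distances between neighbouring peaks on chromosome 7, 2 others were as short. The median distance was 885 kb. The nearest listed peak beyond the downstream edge of the window started at 101600951, 4.33 Mb from the proximal peak, with 18 RAS tags and 4 vector tags and a fold of 4.34. The nearest beyond the upstream edge started at 108035238, 2.09 Mb from the distal peak, with 19 and 4 tags and a fold of 4.58. Their folds over the surroundings were 6.40 and 5.26, and their focus ratios 0.731 and 0.704. The pair was thus alone within 6.43 Mb, and of the other distances on the chromosome 5 were at least as long as that on the downstream side and 21 as that on the upstream side.

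The other 2 close pairs of chromosome 7, looked at after their values were seen, had folds from 4.34 to 7.71, around that of the distal peak and within the interval of the proximal peak. The pair starting at 67404774 and 67412690 was 7916 bp apart, with 17 and 3 tags at the first peak and 16 and 2 at the second, and folds of 5.46 and 7.71. The pair starting at 68514623 and 68530726 was 16103 bp apart, with 23 and 5 tags and 18 and 4 tags, and folds of 4.43 and 4.34. Summed over the NAMPT pair, RAS had 33 tags and vector 4, 7.95 times as many after scaling (exact 95% interval for counting error 2.83 to 30.9). The members of the sum were chosen for their folds, which the interval does not allow for.

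The list holds only peaks higher in RAS that passed the limits of the authors' peak caller. HMGA1 tags within NAMPT, at its promoter or elsewhere in the window that did not pass, and sites lower in RAS, were not analysed here.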

How the data were processed

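HMGA1 ChIP-seq was analysed in 1 RAS and 1 vector library. Alignment and peak calling relied on hg19, Bowtie 0.12.9 and HOMER, per the submitters' processing notes. The sources used here give neither HOMER's version and full settings nor whether input DNA served. The lowest listed folds, 4.02 over vector and 4.00 over the surroundings, stand at the 4-fold limits used here. The labels' protocols give 5 µg of antibody, 10 ng of DNA and 12 PCR cycles.

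The deposited list holds, per the file headers, RAS tags scaled to 10000000 tags and to the vector depth (signal), vector tags (signal, with 0.5 written for 0), fold over vector, surroundings and distinct tags (ratio), their p-values, a findPeaks score and a focus ratio (fraction). No column named a library: RAS and vector were read from the table's name.

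Whole RAS tags were recovered from steps of 0.282 per 10000000 tags; 99.7% of values were whole within 0.1 tag, and the depths came to about 35400000 (RAS) and 34200000 (vector) tags. Intervals are exact, at 95%. Peaks named are those in the window, the nearest outside it and, on chromosome 7, up to 3 with the same tags as each. The other close pairs were added after their values were seen. Members and measures were chosen with earlier results of these data known. The planned list of NAD+ and secretome genes was not run, since no hg19 annotation was used here. Alternatives covered the window, stricter limits, merging, pseudocounts, depth scaling and the set ranked against. Python 3.11.15, numpy 2.4.6, pandas 2.3.3, scipy 1.17.1 and matplotlib 3.10.9 were used.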

Additional observations from a re-analysis of the deposited data

How the results depend on the processing

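The 2 peaks in the window were also all listed peaks within 100 kb, 0.5 Mb and 1 Mb of the gene start. The number fell to 1 at a fold of at least 8 and to 1 at an authors' p-value of at most 1e-10, the proximal peak both times, to 0 at 20 or more RAS tags, and to 1 region when peaks within 20 kb were merged. With 1 tag added to both libraries the folds were 8.19 and 4.34, and without depth scaling 16.00 and 5.67, within their counting intervals. Ranked by the lower limit of the ratio in place of the fold, the share of other chromosome 7 peaks at or above the distal peak was 52.8% in place of 35.8%. These alternatives were no test of robustness. A proximal fold of 5.93, with local background in place of vector tags, still lay within the interval of 2.40 to 647. The wider windows held no other listed peak to add, and the shifts of the gene start were the error allowed for it. No paired analysis was possible because RAS and vector have 1 library each, which also leaves no replicate to drop. Depth is limiting at both peaks: 1 more vector tag would bring the folds to 7.71 and 4.10.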
